A study of Mus musculus with 6 samples.

Results

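The genes described here lie near Bicc1 on mouse chromosome 10. Bicc1, the knocked-out gene, encodes the RNA-binding protein Bicaudal C1. The list holds 10 genes of the 24389 in the files, namely 4930533K18Rik, A930033H14Rik, Tfam, Ube2d1, Cisd1, Ipmk, Zwint, Phyhipl, Fam13c and Slc16a9, and all 10 were found by symbol. They lie near Bicc1 but were not chosen by position alone. Cdk1, Ank3, Ccdc6 and Mrln are nearer to Bicc1 in gene order than A930033H14Rik and are not listed. The knockout against wild-type values of these same libraries were already known when the list was made. That contrast is therefore given for the listed genes as a description, without a test. The study measured mRNA in dorsal pancreas from mouse embryos at E13.5, in 3 libraries of Bicaudal C1 knockout embryos (KO) and 3 of wild-type embryos (WT). KO and WT embryos alike came from mixed C57BL/6 and ICR stock. The labels do not give the structure of the knockout allele, whether the embryos were littermates, or whether a library came from 1 embryo or a pool, so the spread between libraries may in part be technical.

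A knockout allele is inherited together with the stretch of chromosome around it. On a mixed background this stretch can carry other strain variants than the WT chromosome, and genes next to the mutation can then differ in expression for that reason. Genes that share exons or a start region with another gene add a second difficulty, because a library kit that does not mark strand leaves reads of the 2 strands mixed. The effect of losing Bicc1, the effect of linked alleles and the effect of the targeted sequence itself are tied to the same 3 libraries here and cannot be told apart.

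The files give a non-negative value per gene with a floor of 0.01, in a unit the headers do not state. These values summed to between 674295 and 716255 per library, which are not read totals, so the depth behind each value is unknown. Some libraries stood apart in ways that cross the genotypes. In KO 1, KO 2 and WT 3 a gene's deviation rose with its GC content (Spearman's rho across genes 0.40 to 0.61), and in KO 3, WT 1 and WT 2 it fell (-0.19 to -0.66). WT 2 had the female transcript Xist at the floor of 0.01, against 1.28 to 4.63 in the other 5 libraries. The mean of 4 listed Y-linked genes was 7.92 in WT 2 and 2.34 to 5.84 in those 5. Xist and Y-linked transcripts thus occurred together in the 5 libraries, in amounts that differed between libraries and were not adjusted for. The 6 listed markers of pancreatic epithelium were present in every library, with a summed value of 400 to 578 in KO and 436 to 519 in WT, and the mesenchymal, endothelial, blood and neural lists were detected as well, so the tissue was mixed. In such bulk samples, fewer cells of a type and less RNA per cell cannot be told apart.

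4930533K18Rik (ENSMUSG00000047692), a non-coding transcript on the strand opposite to Bicc1, adjoins it in gene order, as Tfam does on the other side. It was low in all KO libraries. Its value was 1.31, 1.58 and 1.57 in KO libraries 1 to 3, against 5.46, 4.38 and 5.06 in WT libraries 1 to 3. The groups did not overlap. The mean was 1.49 ± 0.156 in KO, 29.9% of the mean of 4.97 ± 0.548 in WT (SD, n = 3 each). The difference on the log2(value + 1) scale was -1.26 (SE 0.10). That scale understates low genes, and with a pseudocount of 0.1 the difference was -1.68. With KO 1 and KO 2 set against WT 3 it was -1.31. With KO 3 set against the pair WT 1 and WT 2 it was -1.20. These comparisons within the GC grouping, here and for the genes that follow, were chosen after seeing the data and have a single library on one side, so they carry no error.

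The antisense gene and Bicc1 meet tail to tail. In the GENCODE M21 annotation of build GRCm38, 349 of the 2427 exonic bases of 4930533K18Rik (14.4%) lie in exons of Bicc1. None of these bases lies in the coding sequence of Bicc1. Seen from Bicc1, the same 349 bases are 4.69% of 7441. Another 279 bases (11.5%) overlap Gm48036, a non-coding gene not analysed here. Where along the gene the Gm48036 overlap falls was not determined. By gene order and strand, the start of 4930533K18Rik lies outside Bicc1. Its promoter window, 250 bases before to 50 bases after the RefSeq start (GRCm38.p6, chr10:70868391-70868690, + strand), is shown because it separates this gene from a gene that starts at a CpG-rich promoter, with the bases after the start in capitals.

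4930533K18Rik: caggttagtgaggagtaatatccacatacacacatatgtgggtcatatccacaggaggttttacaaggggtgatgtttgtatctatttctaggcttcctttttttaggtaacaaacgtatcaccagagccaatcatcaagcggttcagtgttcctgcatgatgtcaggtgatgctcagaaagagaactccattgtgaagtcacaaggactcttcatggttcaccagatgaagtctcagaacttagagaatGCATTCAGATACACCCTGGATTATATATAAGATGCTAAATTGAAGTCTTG

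This window was 40.7% G and C and held 2 CG dinucleotides, the letters CG read on either strand. The median over the 32851 RefSeq promoter windows was 52.7% and 7 CG dinucleotides, and 23.3% of windows held at most 2.

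How far Bicc1 reads could fill the antisense value was set out as arithmetic. Bicc1 itself was 3.96, 4.91 and 4.48 in KO libraries 1 to 3, against 19.7, 19.5 and 18.2 in WT libraries 1 to 3. It depends on whether the deposited values are scaled by gene length, which is not given in the sources used here. If they are, and the Bicc1 value applied evenly to the overlapped 14.4% of 4930533K18Rik, it would account for 0.569 to 0.706 of its value in KO and for 2.62 to 2.83 in WT. The remainder was 0.736, 0.872 and 0.927 in KO libraries 1 to 3, against 2.64, 1.57 and 2.44 in WT libraries 1 to 3. The groups still did not overlap, with means of 0.845 ± 0.098 in KO and 2.22 ± 0.565 in WT (SD over 3 libraries each), the KO mean at 38.1% of the WT mean, and the log2 difference was -0.79 in place of -1.26. If the values are instead not scaled by length, the overlapped 4.69% of Bicc1 would account for 0.186 to 0.230 in KO and for 0.855 to 0.923 in WT. The remainder would then average 1.28 ± 0.136 in KO and 4.07 ± 0.551 in WT (SD over 3 libraries each), with a log2 difference of -1.15. The annotation the authors counted on is not given in the sources used here, and coverage along a gene is rarely even, so this is a scale for the overlap and not a correction.

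4930533K18Rik and Bicc1 did not keep the same ratio in KO and WT. As a percentage of the Bicc1 value it was 33.0, 32.1 and 35.1 in KO libraries 1 to 3, against 27.8, 22.5 and 27.8 in WT libraries 1 to 3. All KO percentages lay above all WT percentages. Across the 6 libraries, Bicc1 was the gene with the pattern most like that of 4930533K18Rik among the other genes tested (Pearson's r of log2 values 0.99). Smim27, Fuca2, Shisal2a and an identifier without a symbol followed, with r from 0.98 to 0.99. These correlations over 6 libraries mostly restate the gap between KO and WT, and Smim27 had means of 6.17 in KO and 7.45 in WT, a much smaller gap than that of Bicc1.

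A930033H14Rik (ENSMUSG00000090622) was higher in all KO libraries. This gene of unknown function, annotated as protein-coding, was 2.01, 1.64 and 1.98 in KO libraries 1 to 3, against 0.424, 0.610 and 0.442 in WT libraries 1 to 3. Every KO value lay above every WT value. The mean was 1.88 ± 0.202 in KO, or 3.81 times the 0.492 ± 0.102 in WT (SD, n = 3 each), a log2 difference of 0.95 (SE 0.09), or 1.75 with a pseudocount of 0.1. It passed the filter on low values (a mean of at least 1 over the 6 libraries) only through its KO values. The difference was 0.97 with KO 1 and KO 2 set against WT 3, and 0.98 with KO 3 set against the pair WT 1 and WT 2.

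A930033H14Rik lies 11 genes from Bicc1 in gene order and shares no exonic base with it. It lies inside Rhobtb1, on the opposite strand. Rhobtb1 encodes a protein with BTB domains and is not on the list. The exons of the pair share only 15 bases (0.505% of those of A930033H14Rik), but they start next to each other. The promoter window of A930033H14Rik (GRCm38.p6, chr10:69213049-69213348, - strand) is shown with the 195 bases in capitals that also lie in a promoter window of Rhobtb1 on the other strand.

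A930033H14Rik: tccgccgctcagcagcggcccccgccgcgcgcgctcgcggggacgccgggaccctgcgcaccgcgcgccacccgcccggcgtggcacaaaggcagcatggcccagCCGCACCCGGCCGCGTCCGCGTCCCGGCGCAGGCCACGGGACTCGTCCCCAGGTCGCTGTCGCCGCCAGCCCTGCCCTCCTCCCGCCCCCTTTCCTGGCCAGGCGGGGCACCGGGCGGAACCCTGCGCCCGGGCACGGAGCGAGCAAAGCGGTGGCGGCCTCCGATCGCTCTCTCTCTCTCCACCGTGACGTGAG

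This window was 78.3% G and C and held 46 CG dinucleotides, a number that 1.65% of all RefSeq promoter windows reached. It is the only promoter window of the 10 listed genes that overlapped one of another gene. Both sequences come from RefSeq.

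Rhobtb1 had the pattern most like that of A930033H14Rik among the other genes tested (Pearson's r of log2 values over 6 libraries 0.996, the highest), ahead of Slc8a2, Lrrc3, Gm5454 and Mmab at 0.98 to 0.99. Rhobtb1 was 15.4, 14.9 and 15.7 in KO libraries 1 to 3, against 12.6, 13.2 and 12.8 in WT libraries 1 to 3. No KO value was as low as a WT value, but the KO mean was 119% of the WT mean where that of A930033H14Rik was 381%. As for 4930533K18Rik, correlations over 6 libraries mostly restate the gap between KO and WT. Within the groups, KO 2 was the lowest KO library and WT 2 the highest WT library in both genes. The highest KO library was KO 1 in A930033H14Rik and KO 3 in Rhobtb1. A930033H14Rik as a percentage of Rhobtb1 was 13.0, 11.1 and 12.6 in KO libraries 1 to 3, against 3.36, 4.63 and 3.45 in WT libraries 1 to 3, so the pair did not keep 1 ratio. The 3 listed endothelial markers were also higher in KO on average, with a summed value of 71.7 to 91.4 in KO and 62.7 to 64.1 in WT and none at the floor. A higher KO mean was also found in 3 of 3 blood and 3 of 4 endocrine markers, with summed values that overlapped between KO and WT. The same held for 2 of 6 epithelial, 1 of 4 mesenchymal and 1 of 4 neural markers. The part of cell composition in the A930033H14Rik and Rhobtb1 values was not tested.

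**Figure D1:**
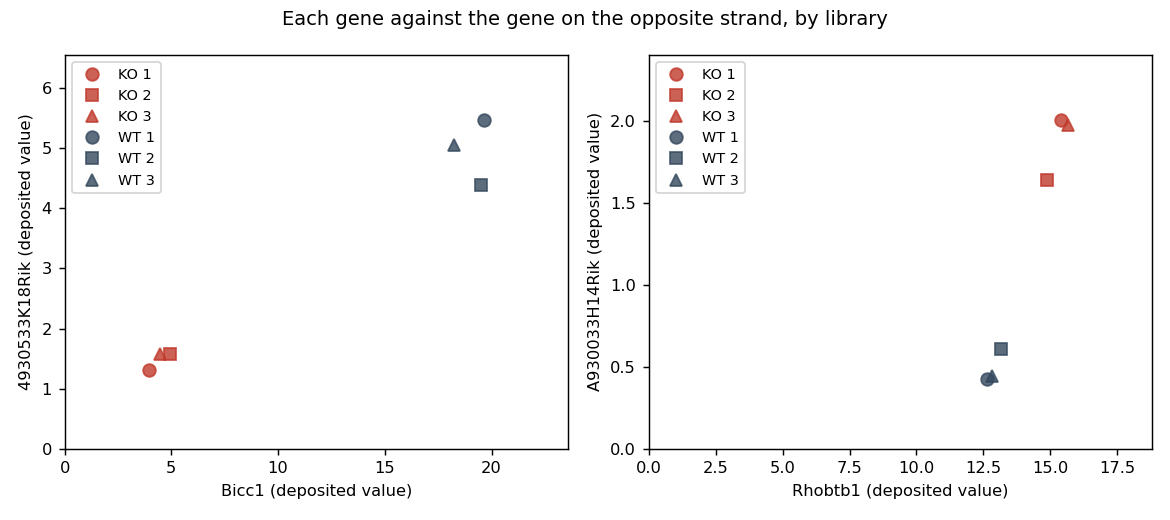
Deposited value of 4930533K18Rik against Bicc1 (left) and of A930033H14Rik against Rhobtb1 (right), 1 point per library, both axes linear from 0. On the left the KO libraries sit at 1.31 to 1.58 and the WT libraries at 4.38 to 5.46, and on the right the KO libraries sit at 1.64 to 2.01 and the WT libraries at 0.424 to 0.610.

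Of the 8 other listed genes, 7 passed the filter, and in each of the 8 the KO and WT values overlapped. The log2 differences of the 7 ran from -0.14 to 0.07, with a median of -0.05, where the median over all genes tested was 0.01. Groups did not overlap in 2 of the 10, 4930533K18Rik and A930033H14Rik. Over all 13911 genes tested 16.4% did not overlap, and since the list was drawn up with this contrast known, nothing is read from its count.

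On the Tfam side of Bicc1, mitochondrial and signalling genes follow each other closely. Tfam, the gene next to Bicc1 there, packages mitochondrial DNA and starts its transcription. It was 18.5, 17.2 and 18.9 in KO libraries 1 to 3, against 20.5, 20.03 and 17.7 in WT libraries 1 to 3. WT 3 lay within the KO values, and Tfam had 93.8% of the WT mean in KO, with a log2 difference of -0.09 (SE 0.08) that was 0.01 for KO 1 and KO 2 against WT 3. Ube2d1, a ubiquitin-conjugating enzyme, was 7.19, 6.34 and 7.29 in KO libraries 1 to 3, against 7.70, 7.10 and 6.86 in WT libraries 1 to 3. Its log2 difference of -0.05 (SE 0.08) turned positive after GC correction and without KO 2.

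Cisd1 encodes mitoNEET, an iron-sulphur protein of the outer mitochondrial membrane. It was 10.1, 11.1 and 10.4 in KO libraries 1 to 3, against 12.2, 11.1 and 11.8 in WT libraries 1 to 3. The groups met only in KO 2 and WT 2, at 11.12 and 11.10. Means were 10.6 ± 0.505 in KO and 11.7 ± 0.566 in WT (SD over 3 libraries each), with KO at 90.1% of WT. The log2 difference of -0.14 (SE 0.07) was -0.14 and -0.15 on the 2 sides of the GC grouping and -0.22 after GC correction. Ipmk, a kinase of inositol polyphosphates and the gene after Cisd1, was 6.72 to 7.44 in KO and 6.95 to 7.77 in WT, 96.9% of the WT mean in KO. Its log2 difference of -0.04 (SE 0.08) was 0.02 with KO 1 and KO 2 set against WT 3.

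Zwint, which encodes a kinetochore protein that helps to place the Zw10 complex at the kinetochore, had the highest deposited values of the 10, though it is unknown whether the files put all genes on a common scale. It was 42.2, 40.0 and 44.0 in KO libraries 1 to 3, against 44.1, 43.3 and 40.6 in WT libraries 1 to 3. The groups covered nearly the same range, and Zwint had 98.6% of the WT mean in KO. The log2 difference of -0.02 (SE 0.07) turned positive after GC correction, without KO 2, without WT 1 and on both sides of the GC grouping.

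On the other side of Bicc1, the protein-coding genes nearest to it had deposited values near 1 to 2. Phyhipl is named for its likeness to a protein that binds phytanoyl-CoA hydroxylase. It was 0.864, 1.07 and 0.907 in KO libraries 1 to 3, against 1.27, 1.17 and 0.949 in WT libraries 1 to 3. WT 3 lay below KO 2, and the log2 difference of -0.13 (SE 0.09) was 0.01 with KO 1 and KO 2 set against WT 3, and -0.22 with KO 3 set against the pair WT 1 and WT 2.

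Fam13c, of the FAM13 family, was 1.48 to 2.04 in KO and 1.49 to 1.88 in WT, with a log2 difference of 0.07 (SE 0.11). Fam13c and Phyhipl also meet tail to tail: 1055 bases are exonic in both, 12.8% of Fam13c and 10.8% of Phyhipl, all outside coding sequence, so their values can share reads. Slc16a9, a member of the monocarboxylate transporter family, had a mean under 1 and was not tested. It was 0.901 to 1.15 in KO and 0.859 to 1.06 in WT, 109% of the WT mean in KO. Of its exonic bases, 12.7% overlap Gm7097 and 10.8% overlap Gm9877 on the other strand. Gm7097 was 0.689 to 0.786 in KO and 0.501 to 0.693 in WT. In Tfam, Ube2d1, Cisd1, Ipmk and Zwint no exonic base was shared with another annotated gene.

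**Figure D2:**
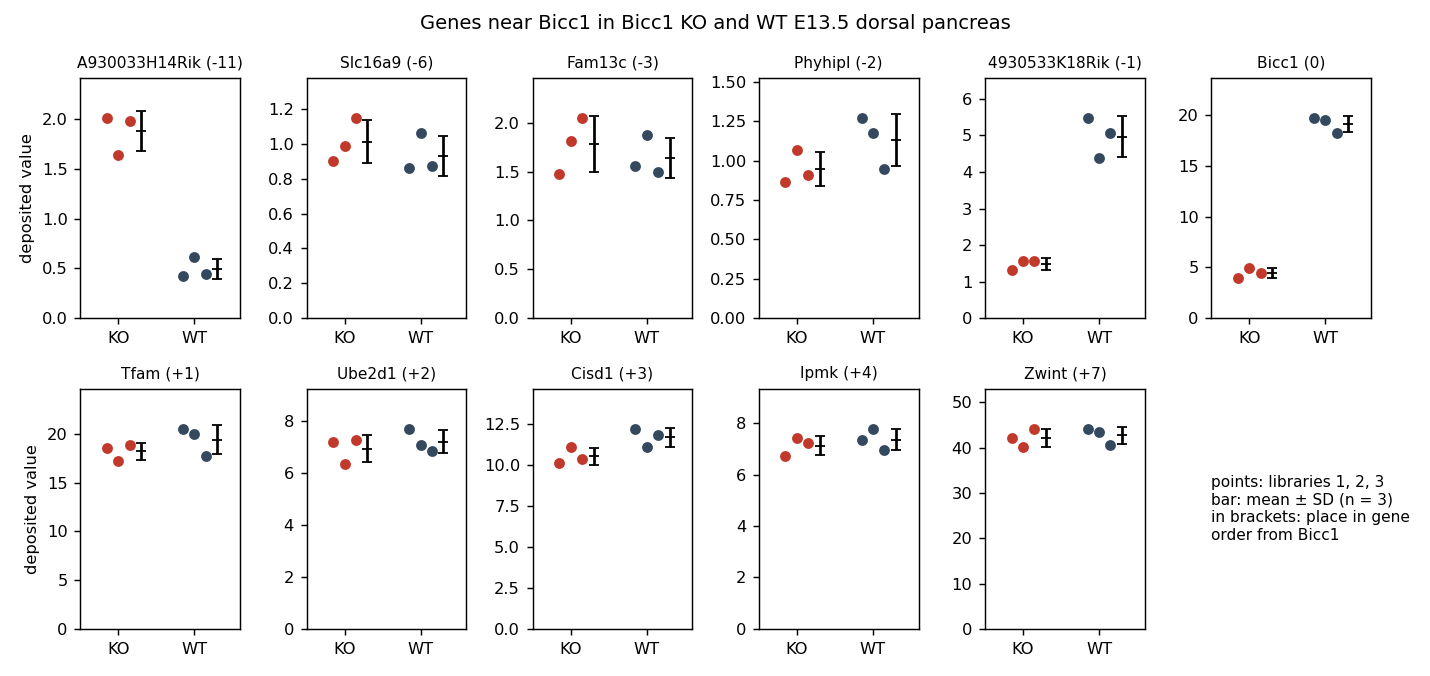
Deposited value (linear axis from 0) of each of the 10 listed genes and Bicc1, in order along chromosome 10, with 1 point per library and the mean ± SD beside them (n = 3). The groups separate in A930033H14Rik, 4930533K18Rik and Bicc1 and overlap in the 8 other panels.

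The libraries of a group agreed more closely in the genes with higher values. The coefficient of variation within a group was 4.22% to 7.58% in Tfam, Ube2d1, Cisd1, Ipmk and Zwint. It was 11.5% to 16.1% in Phyhipl, Fam13c and Slc16a9. In 4930533K18Rik and A930033H14Rik it was 10.5% and 10.8% in KO, and 11.03% and 20.8% in WT. The highest library was 4.19 times the lowest in 4930533K18Rik and 4.73 times in A930033H14Rik, against 1.10 to 1.47 times in the 8 others.

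To see the listed genes against all others in the region, the 20 nearest genes with a value on each side of Bicc1 were taken by gene order alone, 40 in all, of which 10 were the listed genes. The listed genes that passed the filter were in the same fit but were left out of this count. Of the 30 others, 17 passed the filter. Of these 17, 0 rose and 0 fell at a limma p of 0.05 after Benjamini-Hochberg adjustment, and 3 had an unadjusted p under 0.05. Over all genes tested 2 passed, or 0.0144%, and 10.3% had an unadjusted p under 0.05. The 2 were Bicc1 and 4930533K18Rik, whose call restates values known when it was listed. The KO values were all above the WT values in 3 of the 17, Tmem26, Rhobtb1 and Rab36, where the share over all genes tested was 7.67%. They lay below in 0, where that share was 8.77%. The median log2 difference of the 17 was 0.03, and over the 617 tested genes of chromosome 10 other than Bicc1 it was also 0.03.

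Tmem26 had the largest log2 difference of the 17 and lies close to A930033H14Rik. This transmembrane protein gene next to Rhobtb1 was 5.75, 4.53 and 4.97 in KO libraries 1 to 3, against 3.82, 4.05 and 3.59 in WT libraries 1 to 3. Its groups did not overlap, and the log2 difference was 0.33 (SE 0.10; limma adjusted p 0.47). Rhobtb1 had a log2 difference of 0.23 (SE 0.06) and an adjusted p of 0.47 in the same test. The 3 of the 17 with an unadjusted limma p under 0.05 were Tmem26, Rhobtb1 and Arid5b. Arid5b had a log2 difference of 0.30 (SE 0.12, limma adjusted p 0.47), but its groups overlapped. Rab36, a small GTPase gene on the far side, was 2.10 to 2.18 in KO and 1.86 to 2.06 in WT, with an adjusted p of 0.65. The genes between A930033H14Rik and Slc16a9 are Cdk1, Ank3, Ccdc6 and Mrln. The cell cycle kinase gene Cdk1, Ank3 and Ccdc6 were at 95.6%, 99.2% and 99.1% of the WT mean in KO, with overlapping groups. Mrln was 0.877, 1.10 and 0.795 in KO libraries 1 to 3, against 0.732, 0.782 and 0.740 in WT libraries 1 to 3. Each KO value of Mrln lay above each WT value, with the KO mean at 123% of the WT mean, but its mean was under 1 and it was not tested. Adora2a on the far side, also under the filter, likewise had KO values above each WT value, at 168% of the WT mean.

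**Figure D3:**
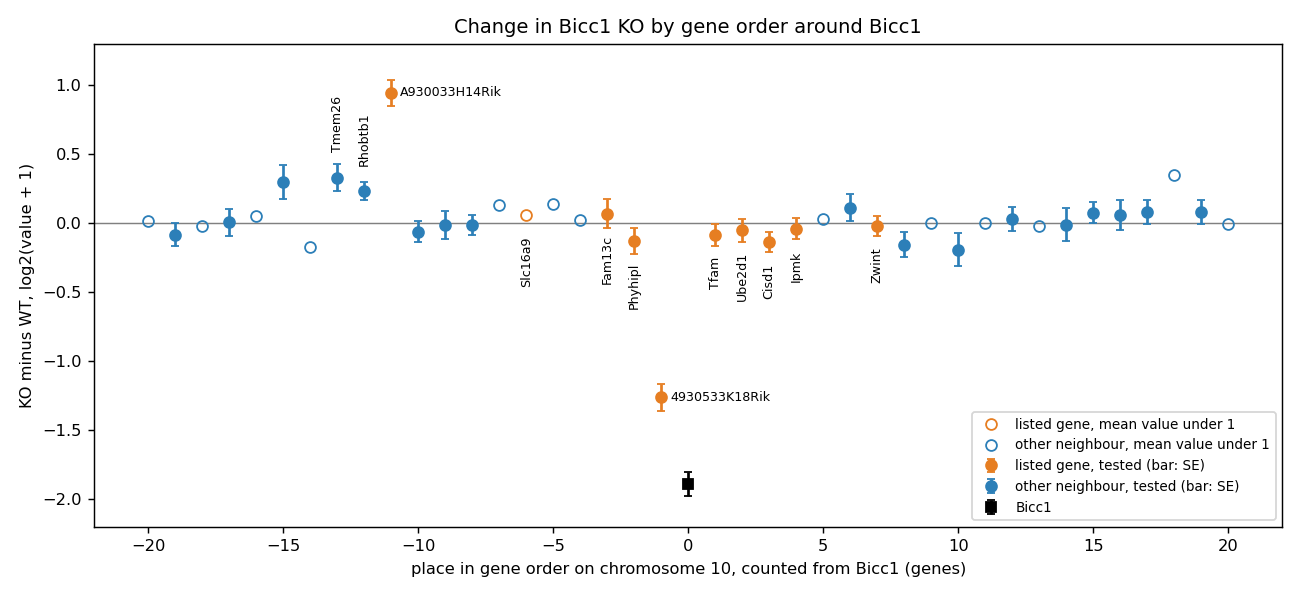
Difference between KO and WT on the log2(value + 1) scale (y axis) by place in gene order from Bicc1 (x axis), with bars for the SE and open circles for genes under the filter. 4930533K18Rik at -1.26 and A930033H14Rik at 0.95 are listed genes, and the 17 tested neighbours not listed run from -0.19 to 0.33.

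Protein partners and family members of the listed genes, in lists drawn up with earlier results known, were looked at in the same fit, as 64 genes, of which 52 were tested. At an adjusted p of 0.05 in limma 0 rose and 0 fell, and 9 had an unadjusted p under 0.05. The KO values were all above the WT values in 9 of the 52 and all below in 9, against 7.67% and 8.77% of all genes tested. The median log2 difference of the 52 was -0.07, against 0.01 over all genes tested. The KO mean was below the WT mean in 46.5% of all genes tested and above it in 53.5%, and the counts by direction that follow are small and were not tested against these shares.

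Among genes of mitochondrial DNA transcription and upkeep, 9 of 13 had a lower mean in KO. Tfb2m, which opens mitochondrial promoters with Tfam, averaged 11.6 ± 0.136 in KO and 13.46 ± 0.784 in WT, and Polg, the mitochondrial DNA polymerase, averaged 4.35 ± 0.274 in KO and 3.75 ± 0.299 in WT (SD over 3 libraries each; adjusted p 0.47 each in limma). Cisd2 and Cisd3, the other CDGSH iron-sulphur genes, were at means of 9.74 and 3.90 in KO, against 10.5 and 4.94 in WT. Of the E2 enzymes tested with Ube2d1, 5 of 6 had a lower mean in KO, and Ube2d3 averaged 185 ± 7.48 in KO and 209 ± 10.6 in WT (SD over 3 libraries each; adjusted p 0.47 in limma). Ube2d1, Ube2d2a and Ube2d3 encode similar proteins, and how reads that match several of them were counted is not given in the sources used here.

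Of the inositol phosphate kinases tested with Ipmk, 5 of 7 had a higher mean in KO. Itpkb, which phosphorylates inositol trisphosphate, was 7.002, 7.54 and 7.67 in KO libraries 1 to 3, against 5.23, 5.17 and 6.05 in WT libraries 1 to 3, with an adjusted p of 0.47 in limma. Of the 13 outer kinetochore genes tested with Zwint, 9 had a lower mean in KO, among them Spc25, a subunit of the Ndc80 complex, at 18.03 ± 0.521 in KO and 21.6 ± 0.726 in WT, while Spc24 of the same complex averaged 11.2 ± 1.98 in KO and 8.72 ± 0.918 in WT (SD over 3 libraries each; adjusted p 0.47 each in limma). Of the 9 monocarboxylate transporter family genes tested with Slc16a9, Slc16a3, a lactate exporter, had the lowest p. It was 1.90, 2.25 and 1.94 in KO libraries 1 to 3, against 0.835, 0.731 and 1.17 in WT libraries 1 to 3, and its groups did not overlap, with an adjusted p of 0.47 in limma. Phyh and Fam13b, the tested relatives of Phyhipl and Fam13c, had means of 8.08 and 4.44 in KO, against 8.72 and 4.57 in WT.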

How the data were processed

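RNA from E13.5 dorsal pancreas was made into TruSeq RNA v2 libraries, per the labels' protocols, with a kit that does not mark strand. The submitters' processing notes name CASAVA 1.82, Bowtie 0.12.7 and build mm9. Annotation, counting and normalization are not stated in any source used here. The authors deposited a signal per gene for 24389 Ensembl identifiers in 6 libraries (3 KO, 3 WT). Symbols were found for 22624 (92.8%). GENCODE M21 (GRCm38) was used for names, gene order, exon overlap and GC content. Gene order and exon overlap rest on its GRCm38 coordinates. RefSeq gave promoter windows for all 10 listed genes (12 windows). Genes with a mean of at least 1 (13911) entered limma 3.58.1 (R 4.3.3) as log2(value + 1) (mean-variance trend, two-sided, Benjamini-Hochberg over all genes). The 9 listed genes that passed the filter were in this fit, its adjustment and the shares over all genes tested. Their differences are described only, with SEs from the fit. Calls were counted for unlisted neighbours and relatives. No counts were held by the files, so the count test planned for that case was not used. An exact test of 3 against 3 cannot give a p under 0.1. The members and lists were chosen with earlier results of these data known. Named genes were the listed genes, Bicc1, neighbours with groups apart (up to 8), up to 2 relatives per list with the lowest p, and the 5 genes most alike to 4930533K18Rik and A930033H14Rik. Arid5b, Cdk1, Ank3, Ccdc6, Gm7097 and Ube2d2a were named after their values were seen. The fit was tested on simulated data. Python 3.11.15, numpy 2.4.6 and pandas 2.3.3 were used.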

Additional observations from a re-analysis of the deposited data

How the results depend on the processing

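The number of genes past an adjusted p of 0.05 in limma, 2 in all, was small enough for single settings to move it. It was 1 with no filter on low values, 0 with the replicate number as a block, and 1 with the block and GC correction. Leaving out 1 library at a time gave 1 to 8 genes: 1 without KO 1, KO 3, WT 1 or WT 3, and 8 without KO 2. The 0 of the unlisted neighbours was 0 in every alternative, the replicate block included. With that block Bicc1 itself did not pass, at a limma adjusted p of 0.088. A count of 0 therefore does not show that the genes counted were unchanged. Same-numbered KO and WT libraries did not deviate together (correlations -0.22, -0.40 and -0.64), and 0 of 6 libraries correlated best with their own number. Same-numbered libraries fall on opposite sides of the GC grouping, so these correlations cannot show whether the number pairs the samples. The 0 of 52 relatives was 0 in every alternative, with the same limit. The signs of 4930533K18Rik, A930033H14Rik and Cisd1 held in all 16 alternatives of the fit, with ranges of -1.68 to -1.19, 0.91 to 1.75 and -0.22 to -0.11. The signs of Tfam, Ipmk and Fam13c also held in all 16, and that of Phyhipl in the 15 it entered, so a kept sign does not set Cisd1 apart. Ube2d1 changed sign in 3 and Zwint in 4 of the 16. Slc16a9 entered only the fit without a filter. The comparisons within each side of the GC grouping and the overlap arithmetic without length scaling were chosen after seeing the data.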
